A study of Mus musculus with 7 samples.

Results

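The clustered protocadherins are cell-surface proteins of the cadherin superfamily whose genes lie in 3 neighbouring clusters on a single mouse chromosome, named alpha, beta and gamma. Members were chosen by symbol, as the rows of the deposited count table whose Entrez identifier maps to a name beginning with Pcdha, Pcdhb or Pcdhg, and selected on holding any count over all libraries. This gave 57 genes of 26286 in the table, 14 in the alpha cluster, 21 in the beta cluster and 22 in the gamma cluster. That a member is expressed is therefore no finding. The rule uses no difference between genotypes, but the gene family was taken up with results of these data known. The single matching row left out was Pcdhb1, with 0 counts in all 7 libraries, which allows a level of up to 0.0501 CPM (read counts scaled to library size as CPM; a floor of 3 counts over all libraries, for counting error only). The members nearest to that limit were Pcdhb6 with 84 and Pcdha8 with 85 counts over all libraries.

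In vertebrate neurons each alpha or gamma member is read from its own promoter and variable first exon, which is spliced to constant exons shared by the whole cluster, whereas beta members are single-exon genes without a constant region. Individual neurons use a small and partly random choice of alternate promoters, with the DNA-binding factor CTCF and the cohesin complex looping promoters to distal enhancers. The resulting surface codes let a neuron's own branches recognise and avoid each other. The C-type members, Pcdhac1, Pcdhac2, Pcdhgc3, Pcdhgc4 and Pcdhgc5, lie at the ends of their clusters and are less subject to random choice.

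RNA-seq of polyA RNA was made from brain samples labelled as cortical neurons of male C57BL/6 embryos at E16.5. There were 3 wild type and 4 KAT7 mutant libraries, each from a separate mouse by the series' design text. KAT7 is a histone acetyltransferase, and the sources used here name neither the allele nor any Cre driver nor the way the neurons were obtained. Counts per library ran from 8272487 to 8813060, so that raw counts can be set side by side, and all 57 members passed the filter on low counts that left 13681 genes.

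Kat7 was nearly absent from the mutant libraries, with 3, 4, 3 and 10 counts in KAT7 mutant replicates 1 to 4, where wild type replicates 1 to 3 held 869, 848 and 854. Neuronal markers were abundant in wild type, with Tubb3 at 1959.7 and Neurod6 at 1311.6 CPM, and no listed marker of any cell type was at 0 in all libraries. Of all tested genes 13.1% were called higher and 15.8% lower by the edgeR test given below. Pan-neuronal markers rose in 5 and fell in 6 of 19 tested, and 8 were not called. Their sums were 16508.6 to 17205.5 CPM in wild type and 15123.7 to 16097.3 CPM in KAT7 mutant. The largest fall in CPM among them was that of a single gene, Stmn2, from a mean of 1333.8 to 327.8 CPM. Radial glia and intermediate progenitor markers fell in 8 and rose in 0 of 12, with summed levels of 798.8 to 849.5 CPM in wild type and 523.9 to 583 CPM in KAT7 mutant. Interneuron markers rose in 6 and fell in 1 of 11, with sums of 316.8 to 490.8 and 398.9 to 546.9 CPM. Oligodendrocyte lineage markers rose in 4 of 8 (39.5 to 49 and 45.1 to 62.8 CPM), microglia markers in 4 of 7 (21.3 to 25.2 and 31.9 to 41.2 CPM) and astrocyte markers in 1 of 6, with 3 falling (218.8 to 229.1 and 288.6 to 298.2 CPM). The higher astrocyte sum lay in the single risen gene, Sparcl1 (71.6 and 157 CPM), and the other 7 listed genes summed to 147 to 155.2 CPM in wild type and 123.3 to 149.4 CPM in KAT7 mutant. Endothelial and pericyte markers fell in 1 of 4, with sums of 11.8 to 13.4 and 10.6 to 11.8 CPM. Olfactory and choroid plexus markers fell in 1 of 2 (109.9 to 119 and 73.2 to 99.7 CPM). Most of that sum was the fallen gene, Gnal (means of 111.4 and 72.8 CPM). The choroid plexus gene Ttr was higher in KAT7 mutant (3.14 and 8.95 CPM) but not called, and the rest of the list did not pass the filter. Red blood cell markers were called in 0 of 4 (22.2 to 129.3 and 52.6 to 162.4 CPM). The part of these shifts in the protocadherin values was not tested, and in such bulk samples fewer cells using a member and less RNA of it per cell cannot be told apart.

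Calls went up in the alpha cluster, down in the beta cluster and both ways in the gamma cluster. Of the 57 members, 10 rose and 14 fell in KAT7 mutant by the edgeR quasi-likelihood test at a Benjamini-Hochberg adjusted p under 0.05. That is 17.5% and 24.6% of members, against a background of 13.1% of all tested genes called higher and 15.8% called lower. Alpha members rose in 5 and fell in 0 of 14, beta members rose in 0 and fell in 8 of 21, and gamma members rose in 5 and fell in 6 of 22. The alpha falls and beta rises were also 0 in DESeq2, in limma-voom and at an unadjusted edgeR p under 0.05. The median log2 fold change of KAT7 mutant over wild type was 0.36 for alpha, -0.43 for beta and 0.10 for gamma, beside 0.00 for all tested genes. Values of the mutant and wild type libraries did not overlap in 27 members, in either direction (47.4%), against 35.3% of all tested genes. No test of a whole cluster was made, since the members were chosen with results of these data known.

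**Figure D1:**
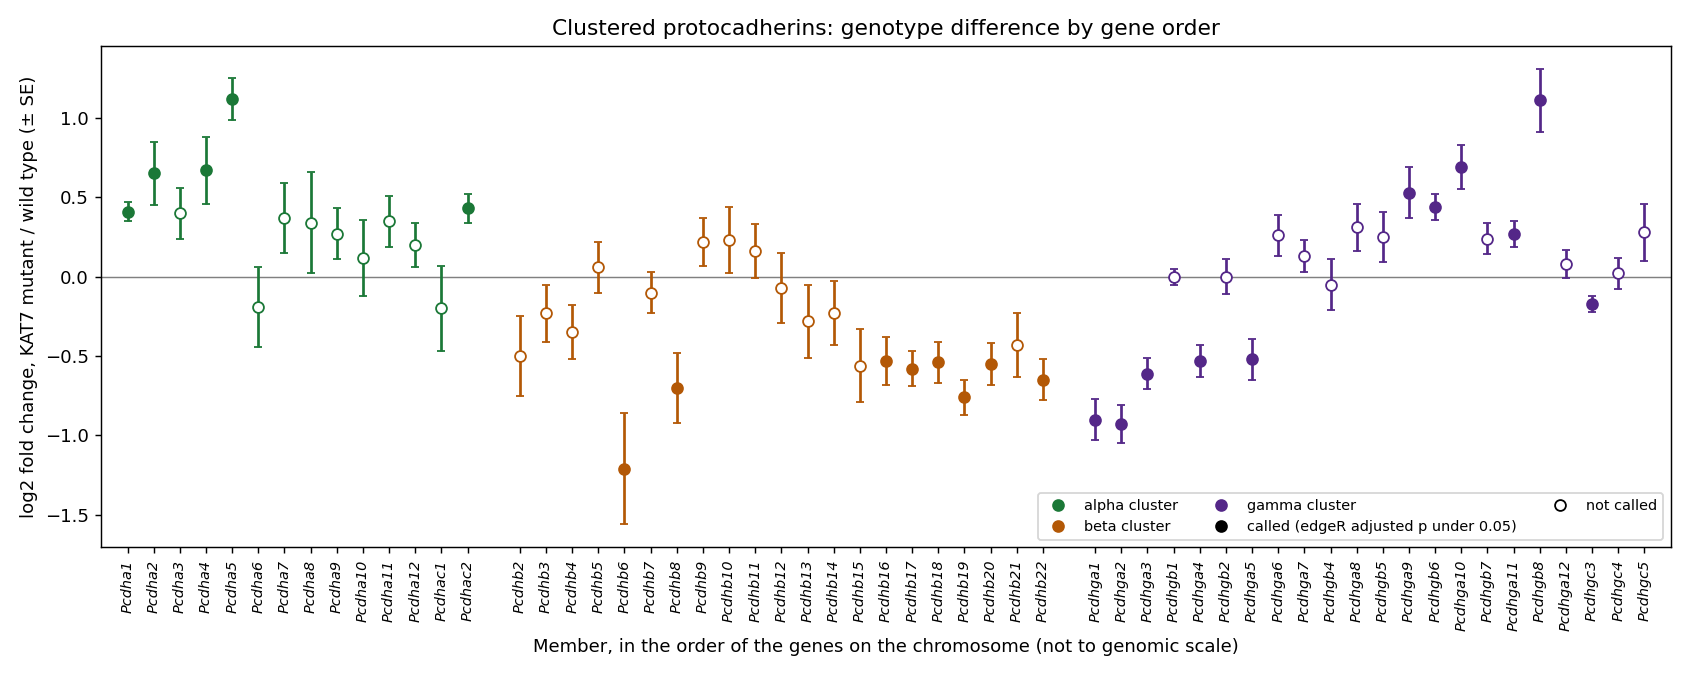
Log2 fold change of KAT7 mutant (n = 4) over wild type (n = 3) with its standard error for each of the 57 members, in gene order, with filled points for genes called by edgeR. Called rises lie in the alpha cluster and the later gamma genes, and called falls in the beta cluster, the early gamma A genes and Pcdhgc3.

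The direction of change followed stretches of neighbouring genes, a description made after the values were seen and not tested. For comparison, 13.1% of all tested genes were called higher and 15.8% lower. At the start of the alpha cluster 4 of the 5 genes from Pcdha1 to Pcdha5 rose, while 0 of the 8 from Pcdha6 to Pcdhac1 were called and the last gene, Pcdhac2, rose. Among the 13 genes from Pcdhb2 to Pcdhb14 only Pcdhb6 and Pcdhb8 fell. From Pcdhb15 to the end of the beta cluster at Pcdhb22, 6 of 8 fell and all 8 had negative log2 fold changes (-0.76 to -0.43). The falls went on into the start of the gamma cluster, where 5 of the 7 genes from Pcdhga1 to Pcdhga5 fell. None of the 5 genes from Pcdhga6 to Pcdhgb5 was called, 5 of the 6 from Pcdhga9 to Pcdhgb8 rose, and of the last 4, Pcdhga12 to Pcdhgc5, 1 fell. Several of these calls rest on single libraries. Leaving out a library could end the rises of Pcdha2, Pcdha4, Pcdhga9 and Pcdhga11 and the falls of Pcdhb6, Pcdhb8, Pcdhb16 and Pcdhgc3. The values of Pcdha1 are uncertain, as set out below. Spearman's rho of fold change with gene order was -0.53 over the 14 alpha genes, -0.37 over the 21 beta genes and 0.61 over the 22 gamma genes, all from the same libraries.

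The A and B genes of the gamma cluster are interleaved along it and differ in sequence. Of 12 gamma A genes 3 rose and 5 fell, and of 7 gamma B genes 2 rose and 0 fell. Beside these stand 13.1% of all tested genes called higher and 15.8% lower. With only 7 B genes, 0 falls is near that share. At the start of the cluster Pcdhga1 to Pcdhga5 fell and the B genes among them were not called, and the called B genes, Pcdhgb6 and Pcdhgb8, lay among later A genes that also rose. The B genes of that early stretch are Pcdhgb1, whose values are uncertain as set out below, and Pcdhgb2. Of the 50-base words of their first exons, 16.8% and 17.9% were also found in another member. For Pcdhga1 to Pcdhga5 this share was 0.0% to 1.0%, and its part in the counts was not tested. The difference between the subfamilies was not tested. Pcdhgb2, which lies between the falling Pcdhga4 and Pcdhga5, had 106, 113 and 131 counts in wild type and 109, 115, 123 and 108 in KAT7 mutant, with a log2 fold change of 0.00 ± 0.11 (SE). It was named after its values were seen.

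Levels per kilobase of the deposited gene length differed widely between members of a cluster. For alpha and gamma genes that length takes in the shared exons described below, as in Pcdhgc3 with 4687 bases by both measures. How reads of those exons were counted is not given, so all alpha and gamma levels per kilobase are uncertain. In wild type, Pcdha1 stood at 35.9 ± 3.33 CPM per kilobase (SD, n = 3), Pcdhac2 at 3.76 ± 0.269 and Pcdha12 at 1.95 ± 0.419, and the lowest alpha genes were Pcdhac1 at 0.384 ± 0.0762 and Pcdha8 at 0.235 ± 0.0377. Pcdhac2 and Pcdha12 were thus apart by more than their spread, as were Pcdhac1 and Pcdha8. The beta genes ran from Pcdhb17 at 6.16 ± 0.679 and Pcdhb20 at 5.43 ± 1.06 down to Pcdhb13 at 0.867 ± 0.18 and Pcdhb6 at 0.891 ± 0.257. Their narrower range beside alpha and gamma genes bears the same uncertainty. The top pair, Pcdhb17 and Pcdhb20, and the bottom pair, Pcdhb13 and Pcdhb6, differed by less than their spread. Pcdhb7 had 3.49 ± 0.331 in wild type, below Pcdhb19 at 3.72 ± 0.259 and Pcdhb22 at 3.68 ± 0.203, though by less than their spread. In the gamma cluster Pcdhgb1 had 138.3 ± 1.68, the C-type gene Pcdhgc3 had 42.8 ± 2.54 and Pcdhga11 had 7.25 ± 0.0268 CPM per kilobase, with Pcdhgb8 lowest at 0.753 ± 0.232.

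**Figure D2:**
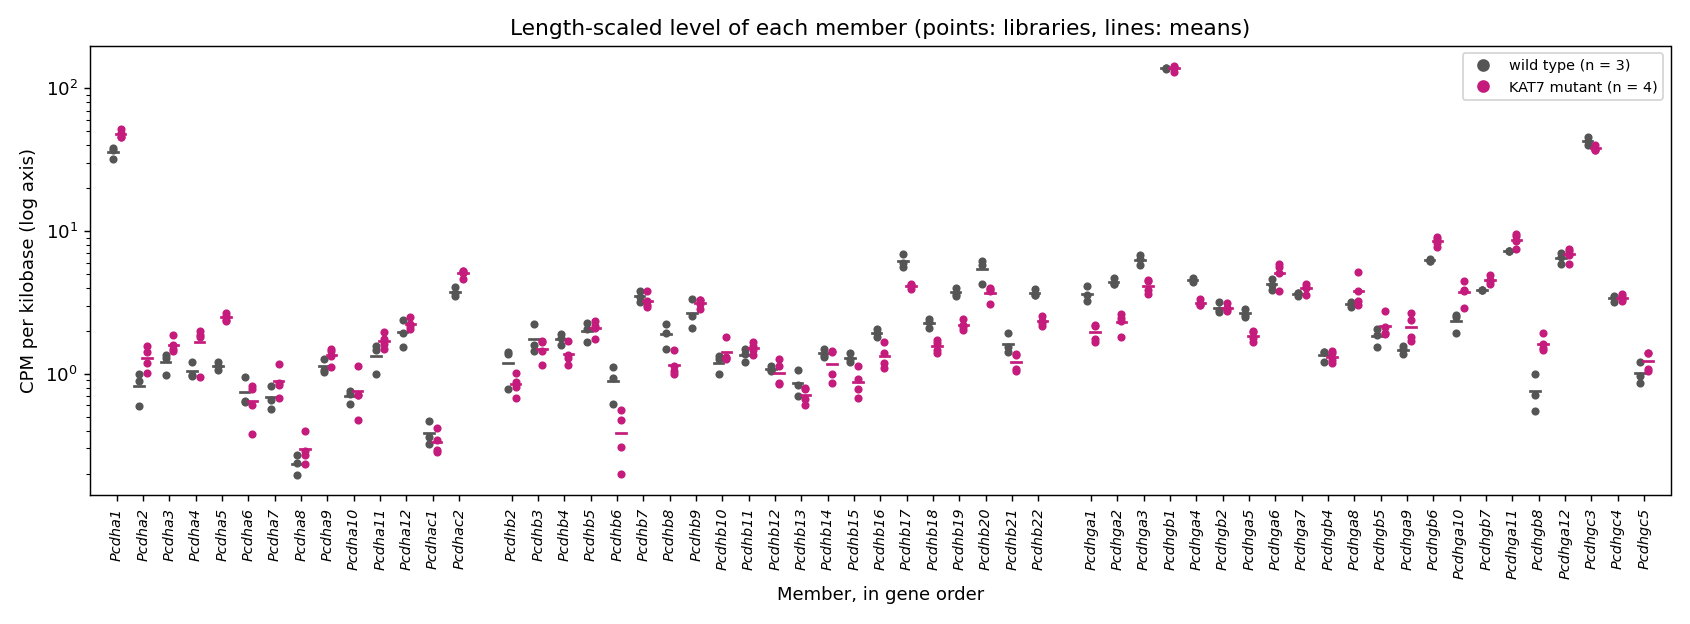
CPM per kilobase of deposited gene length on a log axis for each member in gene order, with a point per library and a line at the mean of wild type (n = 3) and KAT7 mutant (n = 4). Pcdha1, Pcdhgb1 and Pcdhgc3 lie far above the other members of their clusters in both genotypes.

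The values of Pcdha1 and Pcdhgb1 are uncertain. Pcdha1 held 70% of the alpha counts in wild type and 69.9% in KAT7 mutant, and its level over all libraries was 9.48 times that of the next alpha gene. Pcdhgb1 held 53.8% and 54.3% of the gamma counts and stood 3.45 times above Pcdhgc3. In the GENCODE M21 annotation (assembly GRCm38) each alpha gene shares a median of 2860 exon bases with other members (36.4% to 54.9% of its exon bases, 13 of 14 genes found) and each gamma gene 2119 (39.5% to 45.9%). Reads from these shared exons have no single gene of origin. How they were counted is not given in the sources used here, and their part in the values of these rows was not tested. Beta genes share no exon bases in that annotation other than 455 between Pcdhb21 and Pcdhb22. Within the first exons, the share of 50-base words also found in another member was taken as well. Its median was 13.3% for alpha, 4.8% for beta and 0.8% for gamma genes, and it reached 23.4% in Pcdha7. The gamma B genes ran from 2.7% (Pcdhgb7) to 17.9% (Pcdhgb2), and the gamma A and C-type genes from 0.0% to 4.3% (Pcdhga8).

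Alpha protocadherins carry a cytoplasmic constant region that binds the kinases Fyn, Pyk2 and FAK, and the members differ in the extracellular part that recognises the same isoform on another cell. Counts below are given for wild type replicates 1 to 3 and then KAT7 mutant replicates 1 to 4. The largest alpha change was in Pcdha5, with 47, 52 and 56 counts in wild type and 107, 114, 118 and 100 in KAT7 mutant. Each mutant library was far above each wild type library, and Pcdha5 rose by 1.12 ± 0.13 (SE) on the log2 scale (edgeR adjusted p = 1.95e-06), or 2.17-fold. Its neighbours moved less and with more scatter. Pcdha4 had 54, 45 and 46 counts against 92, 83, 43 and 82, so that KAT7 mutant replicate 3 lay below the wild type libraries and the groups overlapped. It rose by 0.67 ± 0.21 (SE) (edgeR adjusted p = 0.019). Leaving out wild type replicate 2 gave an adjusted p of 0.0821, wild type replicate 3 gave 0.0699, KAT7 mutant replicate 1 gave 0.0503 and KAT7 mutant replicate 4 gave 0.0562, so its call rests on single libraries (all alternatives, 0.000368 to 0.0821). Pcdha2 had 40, 47 and 28 counts against 55, 73, 46 and 62. Raw counts of KAT7 mutant replicate 3 and wild type replicate 2 crossed while scaled levels just did not, and it rose by 0.65 ± 0.20 (SE) (edgeR adjusted p = 0.0171). Leaving out wild type replicate 3 (0.116) ended that call, as did leaving out KAT7 mutant replicate 2 (0.0615), with 0.00335 to 0.116 over all alternatives.

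The row of Pcdha1 had 1698, 1709 and 1492 counts in wild type and 2064, 2193, 2299 and 1947 in KAT7 mutant. All mutant libraries were above all wild type libraries, and it rose by 0.41 ± 0.06 (SE) (edgeR adjusted p = 4.06e-05). Pcdhac2, the C-type gene needed for the tiling of serotonergic axons, had 161, 192 and 177 counts against 215, 240, 242 and 233. The groups were again separate, with a rise of 0.43 ± 0.09 (SE) (edgeR adjusted p = 0.00127). Markers of serotonergic neurons did not pass the filter in any of 6 genes, with sums of 0.905 to 1.9 CPM in wild type and 0.812 to 1.47 CPM in KAT7 mutant. The other C-type gene, Pcdhac1, had 16, 15 and 22 counts against 19, 13, 13 and 15, in overlapping groups, at -0.20 ± 0.27 (SE) (edgeR adjusted p = 0.631). Pcdha12, next in level after Pcdhac2, had 68, 109 and 90 counts against 97, 102, 92 and 108, which overlap, at 0.20 ± 0.14 (SE) (edgeR adjusted p = 0.314). The other 7 alpha genes that were not called, Pcdha3 and Pcdha6 to Pcdha11, had log2 fold changes of -0.19 (Pcdha6) to 0.40 (Pcdha3), and Pcdha3 had no overlap between the genotypes at an edgeR adjusted p of 0.0614. It was called higher when KAT7 mutant replicate 1 was left out (0.0476, range 0.0476 to 0.282).

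Beta protocadherins have no constant cytoplasmic region, and they pair with alpha and gamma members at the cell surface. Among their called falls the smallest adjusted p was that of Pcdhb19, with 139, 165 and 152 counts in wild type and 88, 87, 81 and 93 in KAT7 mutant. The groups stood clearly apart, and it fell by 0.76 ± 0.11 (SE) on the log2 scale (edgeR adjusted p = 3.26e-05), to 58.9% of wild type. Pcdhb17, the beta gene with the highest level, had 190, 159 and 174 counts against 117, 121, 109 and 110. It was lower in all mutant libraries and fell by 0.58 ± 0.11 (SE) (edgeR adjusted p = 0.00037). Pcdhb22 had 101, 96 and 96 counts against 62, 57, 59 and 64, groups with little scatter. It fell by 0.65 ± 0.13 (SE) (edgeR adjusted p = 0.000667). Pcdhb18 had 104, 101 and 93 counts against 63, 72, 60 and 71, without overlap, and fell by 0.54 ± 0.13 (SE) (edgeR adjusted p = 0.00367). In Pcdhb20 wild type replicate 3 was lower than the other wild type libraries, with 178, 173 and 127 counts against 111, 90, 113 and 111. The groups still did not overlap, and it fell by 0.55 ± 0.13 (SE) (edgeR adjusted p = 0.00395).

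Pcdhb16, next to Pcdhb17, had 86, 94 and 85 counts in wild type and 54, 64, 49 and 72 in KAT7 mutant. All mutant libraries were lower, by 0.53 ± 0.15 (SE) (edgeR adjusted p = 0.0112). Without wild type replicate 2 the adjusted p was 0.0517, the highest of its alternatives (from 0.00374). The other called falls were in genes of few counts toward the start of the cluster. Pcdhb6 had 12, 19 and 23 counts against 11, 4, 6 and 9, so that wild type replicate 1 and KAT7 mutant replicate 1 differed by a single count. It fell by 1.21 ± 0.35 (SE) (edgeR adjusted p = 0.0127), and the call was lost without wild type replicate 3 (0.0805) and in DESeq2 (0.0516), in a range of 0.00436 to 0.0805. Pcdhb8 had 38, 46 and 31 counts against 20, 23, 29 and 20, close but not overlapping. It fell by 0.70 ± 0.22 (SE) (edgeR adjusted p = 0.0194), and was not called without wild type replicate 2 (0.119) or in DESeq2 (0.0767), in a range of 0.011 to 0.119.

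Pcdhb7, next in level after Pcdhb20 over all 7 libraries but below Pcdhb19 and Pcdhb22 in wild type, had 113, 97 and 108 counts in wild type and 91, 98, 87 and 110 in KAT7 mutant. These groups overlap, and its log2 fold change was -0.10 ± 0.13 (SE) (edgeR adjusted p = 0.604). Pcdhb15 and Pcdhb21, which lie among the falling genes, had no overlap between genotypes but were not called, at -0.56 ± 0.23 (SE) (edgeR adjusted p = 0.0708) and -0.43 ± 0.20 (SE) (edgeR adjusted p = 0.118). Pcdhb15 was called lower when KAT7 mutant replicate 4 was left out (0.0372, range 0.0372 to 0.218). The 10 other beta genes that were not called ran from -0.50 (Pcdhb2) to 0.23 (Pcdhb10). Of these, Pcdhb5, Pcdhb9, Pcdhb10 and Pcdhb11 were the 4 beta genes with a positive fold change, and Pcdhb2 was called lower when wild type replicate 2 was left out (0.042, range 0.042 to 0.393).

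**Figure D3:**
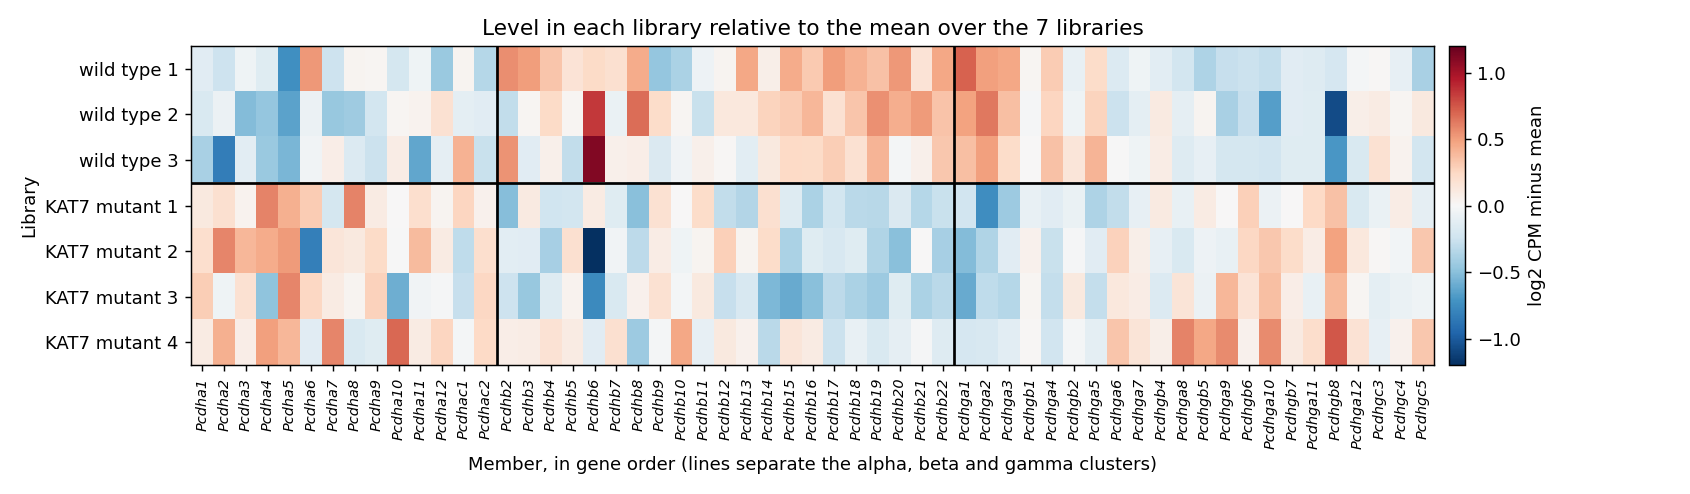
Log2 CPM of each member in each of the 7 libraries minus its mean over the libraries (colour scale from -1.2 to 1.2), with members in gene order and lines between clusters and genotypes. The wild type libraries are high from Pcdhb15 to Pcdhga3 and low at Pcdha5 and Pcdhgb8, where the KAT7 mutant libraries show the opposite.

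Gamma protocadherins are required for the survival of many interneurons and for dendrite growth in cortical neurons. Early gamma A genes showed the largest falls of the cluster. Pcdhga2 had 163, 186 and 171 counts in wild type and 70, 92, 94 and 98 in KAT7 mutant. The highest mutant library was far below the lowest wild type library, and it fell by 0.93 ± 0.12 (SE) on the log2 scale (edgeR adjusted p = 7.43e-06), to 52.4% of wild type. Its neighbour Pcdhga1 had 158, 141 and 131 counts against 84, 69, 64 and 82, equally well apart. It fell by 0.90 ± 0.13 (SE) (edgeR adjusted p = 2.8e-05). Pcdhga3 had 269, 260 and 239 counts against 146, 181, 154 and 173, without overlap, and fell by 0.61 ± 0.10 (SE) (edgeR adjusted p = 9.07e-05). Pcdhga4 had 173, 174 and 188 counts against 130, 119, 116 and 116, in tight groups. It fell by 0.53 ± 0.10 (SE) (edgeR adjusted p = 0.000369). Pcdhga5 had 96, 103 and 115 counts against 65, 77, 68 and 74, also without overlap, and fell by 0.52 ± 0.13 (SE) (edgeR adjusted p = 0.00364).

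The called rises of the cluster lay among its later genes. Pcdhgb8, annotated by RefSeq as a transcribed pseudogene, had 39, 22 and 29 counts in wild type and 58, 64, 59 and 73 in KAT7 mutant. All mutant libraries were higher, and it rose by 1.11 ± 0.20 (SE) (edgeR adjusted p = 0.000223), or 2.16-fold. Pcdhga10 had 95, 76 and 103 counts against 112, 148, 149 and 166, with wild type replicate 3 and KAT7 mutant replicate 1 closest to each other. It rose by 0.69 ± 0.14 (SE) (edgeR adjusted p = 0.00115). Pcdhgb6 had 244, 251 and 265 counts against 364, 356, 329 and 295. The groups did not overlap, and it rose by 0.44 ± 0.08 (SE) (edgeR adjusted p = 0.000253). Pcdhga9 had 59, 57 and 65 counts against 73, 69, 95 and 103, with KAT7 mutant replicates 3 and 4 highest. It rose by 0.53 ± 0.16 (SE) (edgeR adjusted p = 0.0191). Leaving out wild type replicate 2 (0.0808) ended the call, and so did leaving out KAT7 mutant replicate 3 (0.0532) or its replicate 4 (0.0757), with 0.00504 to 0.0808 over all alternatives. Pcdhga11 had 287, 300 and 302 counts against 384, 348, 301 and 358, so KAT7 mutant replicate 3 was level with wild type in raw counts. It rose by 0.27 ± 0.08 (SE) (edgeR adjusted p = 0.0194), and lost its call without wild type replicate 1 (0.0541), 2 (0.0608) or 3 (0.0539), without KAT7 mutant replicate 1 (0.0529) or 4 (0.0601), in a range of 0.00352 to 0.0689. Pcdhgb7, between these genes, had no overlap between genotypes and was not called, at 0.24 ± 0.10 (SE) (edgeR adjusted p = 0.0659). It was called higher when KAT7 mutant replicate 1 was left out (0.048, range 0.048 to 0.185).

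Of the C-type gamma genes, Pcdhgc3, which binds the Wnt pathway scaffold Axin1, had 1593, 1749 and 1882 counts in wild type and 1520, 1628, 1459 and 1429 in KAT7 mutant. Raw counts of wild type replicate 1 and KAT7 mutant replicate 2 crossed, but scaled levels did not overlap. It fell by 0.17 ± 0.05 (SE) (edgeR adjusted p = 0.0201), to 88.8% of wild type, and was not called without wild type replicate 2 (0.0535) or wild type replicate 3 (0.137), in a range of 0.0103 to 0.137. Pcdhgc4, the isoform required for interneuron survival, had 134, 152 and 156 counts against 155, 144, 137 and 145. These groups overlap, at 0.02 ± 0.10 (SE) (edgeR adjusted p = 0.929). Pcdhgc5 had 34, 50 and 40 counts against 42, 57, 43 and 54, also overlapping, at 0.28 ± 0.18 (SE) (edgeR adjusted p = 0.275). The row of Pcdhgb1 had 5300, 5368 and 5506 counts against 4996, 5538, 5339 and 5131. The mutant libraries reached past the wild type range on both sides, at 0.00 ± 0.05 (SE) (edgeR adjusted p = 0.972). Beside these genes, Pcdhgb2 and Pcdhgb7, the 6 gamma genes that were not called, Pcdhga6, Pcdhga7, Pcdhga8, Pcdhga12, Pcdhgb4 and Pcdhgb5, had log2 fold changes of -0.05 (Pcdhgb4) to 0.31 (Pcdhga8). Of these, Pcdhga6 was called higher when KAT7 mutant replicate 1 was left out (0.00737, range 0.00737 to 0.352), and Pcdhga8 when KAT7 mutant replicate 2 was (0.047, range 0.047 to 0.517).

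Summed over its members, the alpha cluster was higher and the beta cluster lower in every KAT7 mutant library. Alpha sums were 282.1, 278.4 and 246.6 CPM in wild type and 347.1, 366.4, 373.7 and 350.3 CPM in KAT7 mutant, means of 269.1 ± 19.5 (SD, n = 3) and 359.4 ± 12.7 (SD, n = 4). Without Pcdha1 the means were 80.4 ± 2.51 and 108.1 ± 4.97 CPM, at 134.5% of wild type beside 133.6% with it. Beta sums were 175.6, 169.8 and 156.1 CPM against 126.4, 127.8, 121.3 and 139.3 CPM, and KAT7 mutant had 77% of the wild type mean. Both separations were larger than the spread between libraries, and sums were not tested.

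The summed gamma cluster overlapped between the genotypes. Gamma sums were 1152.7, 1148.2 and 1169.8 CPM in wild type and 1085.2, 1176.2, 1136.6 and 1176.2 CPM in KAT7 mutant. The ratio of means was 98.8% of wild type, 97.7% without Pcdhgb1 and 103.1% without Pcdhgb1 and Pcdhgc3. Among the 20 remaining genes the means were 334 ± 0.181 CPM (SD, n = 3) and 344.2 ± 21.8 CPM (SD, n = 4).

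**Figure D4:**
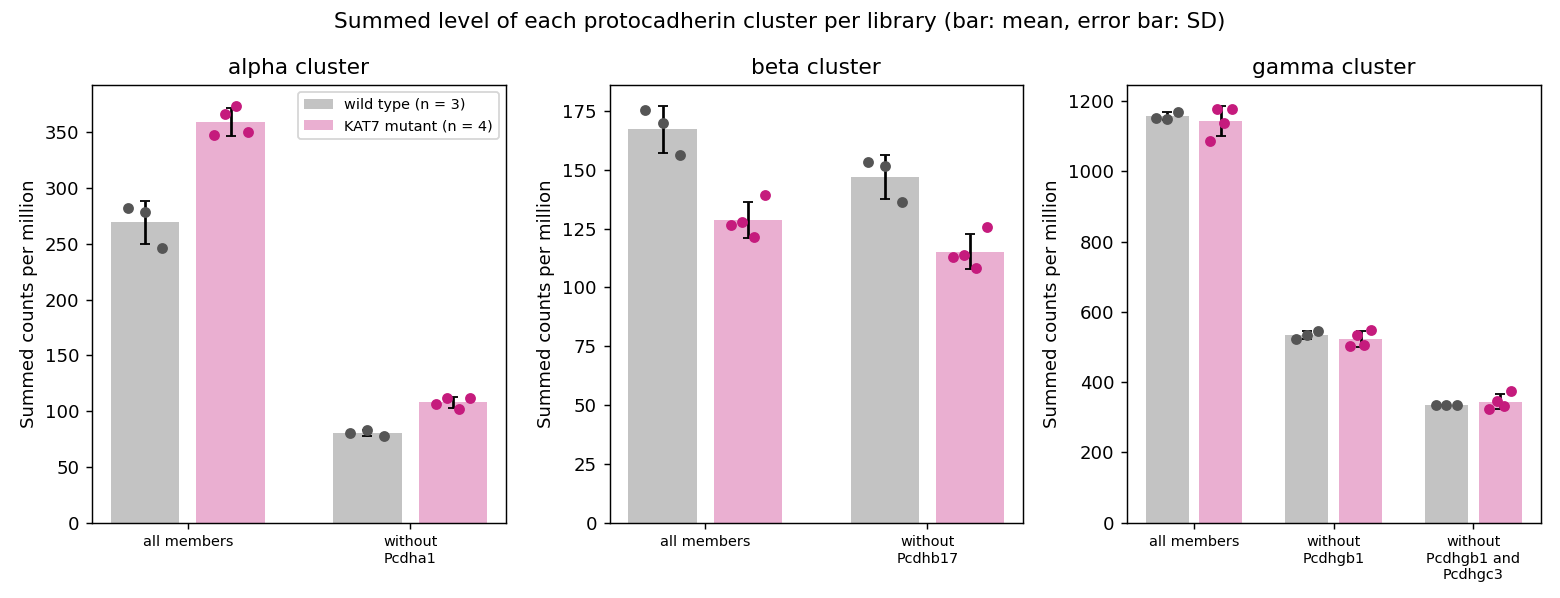
Summed CPM of each cluster per library (points) with the mean (bar) and SD (error bar) of wild type (n = 3) and KAT7 mutant (n = 4), for all members and without those with the most counts. Mutant libraries lie above wild type for alpha and below for beta, and for gamma they reach past the wild type range on both sides.

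Of 21 tested neighbours of the clusters, 10 on each side and Taf7 between beta and gamma, 2 rose and 1 fell. Their median log2 fold change was 0.03, and of all tested genes 13.1% were called higher and 15.8% lower. Dnd1 had the largest change of these neighbours, on few counts, at 0.78 ± 0.29 (SE) without overlap (edgeR adjusted p = 0.0511). It was called higher with RLE factors (0.0498), in limma-voom (0.0488) and without wild type replicate 2 (0.0438, range 0.0438 to 0.182). Taf7, a subunit of the general transcription factor TFIID that lies between falling beta and gamma genes, stood at -0.26 ± 0.10 (SE) (edgeR adjusted p = 0.0625). It was called lower with no filter on low counts (0.0401) and when KAT7 mutant replicate 3 was left out (0.0124, range 0.0124 to 0.198). Pcdh1, a protocadherin outside the clusters, rose by 0.45 ± 0.09 (SE) (edgeR adjusted p = 0.000795), and Fchsd1, a regulator of membrane and actin shape, fell by 0.47 ± 0.13 (SE) in overlapping groups (edgeR adjusted p = 0.00944). Fchsd1 was not called when wild type replicate 2 was left out (0.0657, range 0.000287 to 0.0657). Hars, a histidyl-tRNA synthetase gene, rose by 0.15 ± 0.05 (SE) (edgeR adjusted p = 0.0334) and lost its call when wild type replicate 1 (0.0772), 2 (0.0736) or 3 (0.123) or KAT7 mutant replicate 2 (0.071) or 3 (0.075) was left out. It was also not called with library size only (0.0537), with no filter on low counts (0.0708) and in DESeq2 (0.063), in a range of 0.0291 to 0.123.

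Factors known to act on protocadherin promoters are set beside the share of all tested genes called, 13.1% higher and 15.8% lower. Of 13 tested CTCF, cohesin and loop regulator genes 1 rose and 0 fell, with a median of 0.07, and at an unadjusted edgeR p under 0.05 there were 5 and 1. Ctcf itself had 238.7 ± 5.65 (SD, n = 3) and 221.5 ± 4 CPM (SD, n = 4) in the wild type and mutant libraries, at -0.11 ± 0.05 (SE) (edgeR adjusted p = 0.0866), and Stag1, a cohesin subunit, rose by 0.19 ± 0.06 (SE) (edgeR adjusted p = 0.0188). Stag1 was not called without wild type replicate 1 (0.14, range 0.0154 to 0.14). Ctcf was called lower with library size as the only scaling (0.0495, range 0.0495 to 0.239). Of 15 DNA methylation and silencing genes 0 rose and 1 fell, or 5 and 2 at an unadjusted edgeR p under 0.05, and DESeq2 and limma-voom gave the same called counts for both lists. The fall was in Uhrf1, which directs maintenance methylation in dividing cells, from 12.8 ± 0.76 to 6.31 ± 0.825 CPM, at -1.03 ± 0.14 (SE) (edgeR adjusted p = 8.63e-06). Any link to the lower progenitor markers given above was not tested. Smchd1, a silencing factor known to act on protocadherin clusters, was at 0.11 ± 0.05 (SE) (edgeR adjusted p = 0.0876), and Setdb1, a histone methyltransferase that limits looping at these clusters, was at -0.10 ± 0.10 (SE) (edgeR adjusted p = 0.511). Dnmt3b, which methylates their promoters in early development, had 3.08 ± 1.11 and 2.07 ± 0.135 CPM, at -0.57 ± 0.26 (SE) (edgeR adjusted p = 0.116), and was called lower without wild type replicate 2 (0.0219, range 0.0219 to 0.459).

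Among cleavage enzymes, partners and effectors of protocadherins, calls went in both directions, beside 13.1% of all tested genes called higher and 15.8% lower. Of 6 tested cleavage enzyme genes, which encode ADAM10 and the presenilin complex, 0 were called by edgeR, DESeq2 or limma-voom, with a median of -0.11 and 2 lower at an unadjusted edgeR p under 0.05. Cytoplasmic partners and effectors rose in 3 and fell in 2 of 23, with a median of 0.00. Marcks, an actin-regulating target of protein kinase C downstream of gamma protocadherins, rose from 632.3 ± 16.4 to 826.4 ± 15.6 CPM, by 0.39 ± 0.04 (SE) (edgeR adjusted p = 1.52e-06). Abi1, a subunit of the WAVE actin regulator that alpha protocadherins bind, rose by 0.24 ± 0.05 (SE) (edgeR adjusted p = 0.00217), while Cyfip1 of the same complex fell by 0.25 ± 0.05 (SE) (edgeR adjusted p = 0.00118). Ret, a receptor tyrosine kinase that binds protocadherins, fell from 2.16 ± 0.392 to 0.413 ± 0.0637 CPM, by 2.34 ± 0.36 (SE) (edgeR adjusted p = 4.68e-05). Of 4 tested partner genes at the synapse 0 rose and 2 fell, also in DESeq2, in limma-voom and at an unadjusted edgeR p under 0.05. Cdh2, which encodes N-cadherin, fell from 716.3 ± 43 to 436.6 ± 17.2 CPM, by 0.71 ± 0.05 (SE) (edgeR adjusted p = 1.83e-09), and Nlgn1, a neuroligin that gamma members bind, fell by 0.44 ± 0.07 (SE) (edgeR adjusted p = 3.76e-05).

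Partners of KAT7 in its acetyltransferase complexes rose in 5 of 9 tested genes other than Kat7 and fell in 0. The falls were also 0 in DESeq2, in limma-voom and at an unadjusted edgeR p under 0.05. The shares of all tested genes were 13.1% called higher and 15.8% called lower. Kat7 itself had a log2 fold change of -7.35 ± 0.15 (SE) (edgeR adjusted p = 8.18e-18). Brpf3, a scaffold subunit, rose by 0.45 ± 0.09 (SE) (edgeR adjusted p = 0.000519). Brpf1 rose by 0.30 ± 0.06 (SE) (edgeR adjusted p = 0.00111) and Brd1 by 0.28 ± 0.05 (SE) (edgeR adjusted p = 0.000607). Both were without overlap and kept their calls under all alternatives. Jade2, another scaffold, rose from 1.93 ± 0.589 to 4.11 ± 1.87 CPM in overlapping groups, by 1.08 ± 0.32 (SE) (edgeR adjusted p = 0.0135), a call lost without wild type replicate 2 (0.0682) or 3 (0.0612) and without KAT7 mutant replicate 4 (0.0597), in a range of 0.000298 to 0.0682. Jade3 rose by 0.31 ± 0.10 (SE) (edgeR adjusted p = 0.0219), a call that ended when wild type replicate 2 (0.167) was left out, or KAT7 mutant replicate 4 (0.0659), in a range of 0.00968 to 0.167.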

How the data were processed

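RNA-seq of 7 libraries was analysed from a single table of read counts that the authors deposited, with an Entrez identifier and a gene length per row. Per the submitters' processing notes, featureCounts was the counting tool and mm9 the genome build. No source used here gives the aligner, annotation release, strand setting or treatment of reads in shared exons. Symbols, gene order and biotypes came from a RefSeq gene table of assembly GRCm38.p6 (24176 of 26286 identifiers matched). That build differs from mm9, so no coordinates are given.

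Genes were filtered with filterByExpr (minimum count 10), scaled by TMM (factors 0.9894 to 1.01) and tested in edgeR (version 4.0.16) by quasi-likelihood F test (two-sided, genotype as the only term), adjusted over 13681 genes by Benjamini-Hochberg and called under 0.05. CPM use the TMM-adjusted library size. SE is the log2 fold change divided by the root of F. No pair of libraries of a genotype was alike within counting noise (chi-square per gene 1.98 to 3.47). P-values measure the spread between mice. The members and lists were chosen with earlier results of these data known. Genes named are all called members, the 3 highest of each cluster per kilobase, the C-type members, up to 4 called genes per list or among neighbours, and Kat7, Ctcf, Smchd1, Setdb1 and Dnmt3b. Other genes, such as Pcdha3, Pcdhb15, Pcdhb21, Pcdhgb2, Pcdhgb7, Taf7, Sparcl1, Stmn2, Gnal, Ttr, Brpf1, Brd1, Dnd1 and those at the ends of ranges, were named after their values were seen.

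Alternatives were RLE, upper-quartile and no composition factors, no count filter, a filter of 1 CPM in 3 libraries, DESeq2 (version 1.42.0), limma-voom (version 3.58.1), edgeR fitted robustly, a replicate block, each library left out and an adjusted p under 0.01. For cluster sums, the genes summed were also varied, and a mean of log2 CPM (pseudocount 0.5) was used.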

Additional observations from a re-analysis of the deposited data

Results flagged for a closer look

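Among the 4 KAT7 mutant libraries, a single library stood apart from the other 3 in 3 of 79 genes and cluster sums examined. That is no more than the share of about 1 in 20 that chance gives. Pcdhb10 was at 5.14 CPM in KAT7 mutant replicate 4 and at 3.59 to 3.74 CPM in the others. Kat7 was at 1.22 CPM in KAT7 mutant replicate 4 and at 0.351 to 0.464 CPM in the others. Cyfip1 was at 113.1 CPM in KAT7 mutant replicate 1 and at 105.8 to 106.1 CPM in the others.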

How the results depend on the processing

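Of the 24 called members, 16 kept direction and call under all 17 alternatives, 8 lost the call under at least 1, and 0 reversed. At an adjusted p under 0.01, 3 alpha members were called higher, 5 beta members lower and 3 gamma members higher, since fewer genes pass a stricter threshold. Higher too were 1 neighbour and 5 of the 70 tested regulators, cleavage enzymes, effectors and partners, with KAT7 partners included and Kat7 left out. Otherwise the cause was not tested. With 1 library left out, called rises were 3 to 5 in alpha, with 3 without wild type replicate 3, and 3 to 6 in gamma, with 3 when wild type replicate 2 or mutant replicate 4 was left out. The log2 ratio of sums was 0.36 to 0.45 for alpha, -0.42 to -0.34 for beta and -0.03 to 0.01 for gamma. Beta falls were 7 to 9 and gamma falls 5 to 6. Those 70 listed genes rose in 6 to 11 and fell in 5 to 7, against 9 and 5 with all libraries. Neighbours called higher were then 1 to 2 and called lower 0 to 2, against 2 and 1. Neighbours called higher were 1 with library size only, with no filter on low counts, in DESeq2 and with the replicate block, and 3 with RLE factors and in limma-voom, where Dnd1 was added. Neighbours called lower were 2 with no filter. The mean of log2 CPM over members gave 0.32 for alpha, against a log2 ratio of sums of 0.42, and 0.03 for gamma, against -0.02. The gamma ratio was 0.04 without its 2 members with the most counts, an alternative added after seeing the data. Replicate numbers did not pair the libraries, as deviations of same-numbered libraries correlated at 0.0181, 0.0118 and -0.0292. With the replicate block 3403 genes were called rather than 3956, and 21 members rather than 24, with 3 gamma rises in place of 5. It added a call for Pcdhb15 (0.0464) and ended 4 members' calls. Under it the adjusted p was 0.0675 for Pcdhb8, 0.0649 for Pcdhga9, 0.0689 for Pcdhga11, 0.06 for Pcdhgc3, 0.0678 for Hars, 0.0575 for Jade2 and 0.0735 for Jade3. Depth limits the alpha and beta genes of few counts, where SE reached 0.35.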
